A study of Mus musculus with 9 samples.

Results

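The Ly6 genes encode small surface proteins held in the membrane by a glycosylphosphatidylinositol (GPI) anchor and built on a disulfide-rich fold shared with the urokinase receptor (uPAR). Many of them lie side by side in a cluster on mouse chromosome 15. They are widely used to sort blood cells: Ly6a is Sca-1, a marker of mouse stem and progenitor cells, Ly6d marks lymphoid progenitors of the mouse that are set on the B cell path, and Ly6e is a broadly expressed member known as an interferon-induced gene. Ly6k is known mainly from germ cells and, in human, from tumours.

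4 genes of the cluster, Ly6k, Ly6a, Ly6d and Ly6e, are described here over 3 groups of mouse leukemias. The probe sets were selected by their single gene symbol in the platform annotation, which gave 5 of the 45101 probe sets of the table: 2 for Ly6k, 1 for Ly6d and 2 for Ly6e. No probe set of that annotation carries Ly6a as its single symbol, so Ly6a was not analysed here, and 3 of the 4 genes have values. The 4 genes were chosen from the family with their values in these 3 groups already known, Ly6k for its large difference, so their levels and differences are given as a description with no p-value. Where their probe sets are counted past a threshold below, nothing is read from the counts. No sequence of the 4 genes is printed, and a promoter or protein of them was not used here.

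The arrays measured RNA of freshly harvested bone marrow from mice of a mixed C57/BL6 X 129 background; age and sex were not given in the labels. Af10 floxed leukemias (3 arrays) were MLL-AF9 leukemias homozygous for a floxed Af10 gene (Mllt10), transduced with the tdTomato retroviral vector MIT alone and passed to secondary recipients. Af10 deleted leukemias (3 arrays) came from the same kind of primary leukemia given the MIT vector with Cre recombinase, so loss of Af10 and expression of Cre cannot be told apart. Both were sorted for tdTomato. The third group, 3 arrays of primary leukemias transduced with Hoxa9 and Meis1, was not sorted and came from first-generation disease, so oncogene, passage, vector and sorting cannot be told apart where it is compared. The labels do not say whether arrays stand for separate mice or primary clones, so the spread between arrays may in part be technical. In such bulk RNA, fewer cells of a type and less RNA per cell cannot be told apart.

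Values are RMA intensities as log2(value + 1), with SD over the 3 arrays of a group after ±, and SE for a fitted difference. Probe sets of Y-linked genes, used as a gauge of background, lay between 2.97 and 4.71. All 12 markers of myeloid leukemia identity were measured, none of them within that range on all arrays, with summed intensities of 89439 to 94900 in deleted, 58385 to 83201 in floxed and 82807 to 88650 in Hoxa9-Meis1 leukemias. All 4 Mllt10 probe sets were lower in deleted leukemias, by 0.76 to 1.05 on the log2 scale (limma adjusted p between 0.00105 and 0.0328). Median intensity per array was 146 to 156. Because the Ly6 cluster lies on chromosome 15, the level of that chromosome was followed on each array: over 442 of its genes outside the family with a mean of at least 7, floxed replicate 4 was 0.17 above the other floxed arrays by the median, and each of the other 8 arrays was between -0.10 and 0.06 from the others of its group.

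Ly6k showed the widest range of the measured members. By probe set 1452855_at it was at 11.07, 10.51 and 10.58 on the floxed arrays. It was at 5.64, 6.11 and 5.88 on the deleted arrays and at 5.88, 6.09 and 5.43 in Hoxa9-Meis1 leukemias. Only the floxed leukemias were high, and the deleted and Hoxa9-Meis1 arrays overlapped. As plain intensities these were 1456 to 2146 in floxed, 48.9 to 68.0 in deleted and 42.2 to 67.2 in Hoxa9-Meis1 leukemias. The group means were 5.87 ± 0.23 in deleted, 10.72 ± 0.30 in floxed and 5.80 ± 0.34 in Hoxa9-Meis1 leukemias. The deleted minus floxed difference was -4.84 (SE 0.22, 28.7-fold), and a gap of 4.40 separated the nearest arrays of the groups. Floxed minus Hoxa9-Meis1 was 4.92 (30.2-fold), while deleted minus Hoxa9-Meis1 was 0.07 (SE 0.22), less than the spread between replicates. In order of level, floxed leukemias stood first, and the other groups did not differ beyond their spread. Without floxed replicate 4, the array with raised chromosome 15 genes and the highest Ly6k value, the deleted minus floxed difference was -4.67.

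The other Ly6k probe set did not show this pattern. 1454071_at was at 4.92, 4.71 and 4.95 on floxed arrays, at 4.55, 4.52 and 4.72 on deleted arrays and at 4.77, 4.64 and 4.43 in Hoxa9-Meis1 leukemias, all near the upper end of the background gauge. The groups overlapped in all 3 comparisons, and deleted minus floxed was -0.26 (SE 0.13). Which Ly6k transcripts each probe set binds was not tested.

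**Figure D1:**
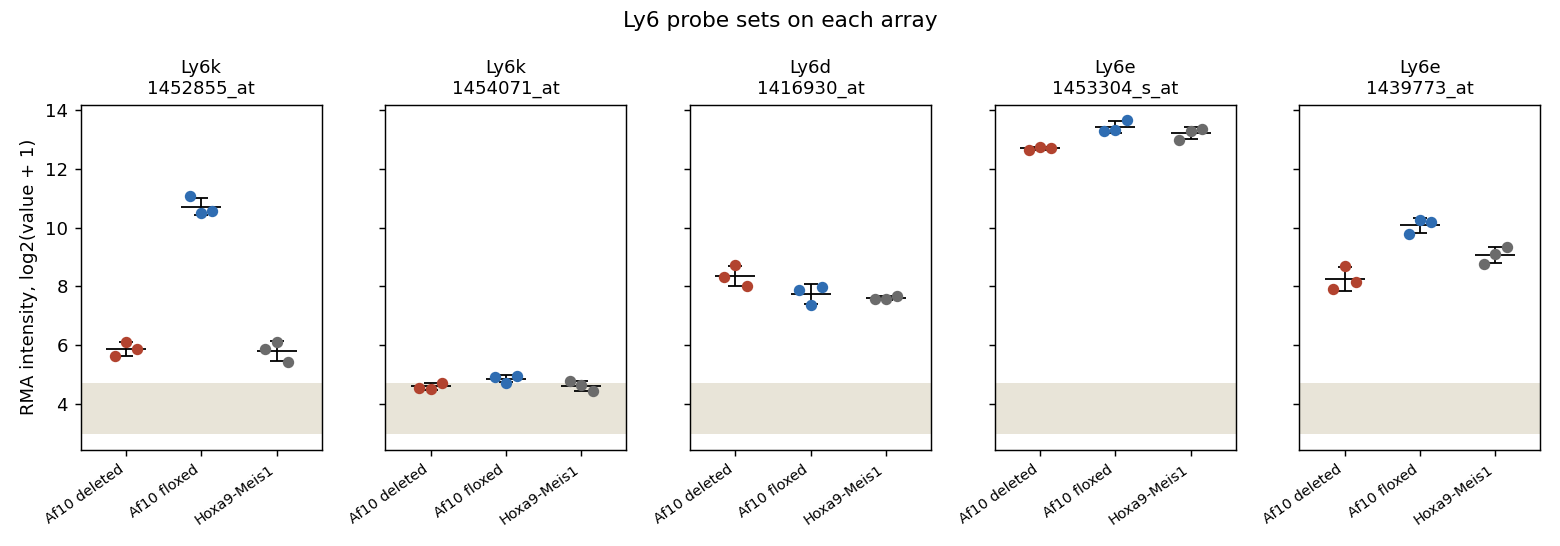
Each point is 1 array, the horizontal bar the group mean and the whisker its SD (n = 3), on the log2(value + 1) scale; the shaded band (2.97 to 4.71) spans what Y-linked probe sets gave. Ly6k 1452855_at is high only in floxed leukemias, both Ly6e probe sets are lowest in deleted leukemias, and Ly6d is highest there.

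Ly6e, the broadly expressed interferon-induced member, was lowest after Af10 deletion by both of its probe sets. By 1453304_s_at it was at 12.65, 12.76 and 12.72 on deleted arrays. The floxed arrays were at 13.29, 13.31 and 13.65 and the Hoxa9-Meis1 arrays at 12.99, 13.30 and 13.37. All deleted arrays lay below all others, and the floxed and Hoxa9-Meis1 arrays overlapped. Deleted minus floxed was -0.71 (SE 0.15, 1.64-fold) and deleted minus Hoxa9-Meis1 -0.51 (SE 0.15), while floxed minus Hoxa9-Meis1 was 0.20 (SE 0.15), about the SD within these groups (0.20 and 0.21).

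By 1439773_at the 3 groups stood apart. Ly6e was at 7.91, 8.70 and 8.16 on deleted arrays, at 8.76, 9.10 and 9.32 in Hoxa9-Meis1 leukemias and at 9.79, 10.27 and 10.19 on floxed arrays. The order was therefore floxed, Hoxa9-Meis1, deleted, with a gap of 0.47 between the nearest arrays of the first pair and of only 0.06 for the second. Deleted minus floxed was -1.83 (SE 0.23, 3.55-fold), floxed minus Hoxa9-Meis1 1.02 (2.03-fold) and deleted minus Hoxa9-Meis1 -0.81 (1.75-fold). The probe sets thus gave the same direction in the comparisons with deleted leukemias, but sizes of 1.64-fold and 3.55-fold for deleted versus floxed. Between floxed and Hoxa9-Meis1 leukemias only 1439773_at differed beyond the spread of the arrays. The name of 1453304_s_at marks a probe set that can bind several transcripts, and its share of other transcripts was not tested.

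Ly6d went the other way. Its only probe set, 1416930_at, was at 8.33, 8.71 and 8.01 on deleted arrays. It was at 7.88, 7.37 and 7.98 on floxed arrays and at 7.58, 7.57 and 7.69 in Hoxa9-Meis1 leukemias. The deleted arrays were highest, but deleted and floxed arrays nearly touched, with a gap of 0.02, and the floxed and Hoxa9-Meis1 arrays overlapped. Deleted minus floxed was 0.61 (SE 0.21, 1.52-fold), deleted minus Hoxa9-Meis1 0.74 (SE 0.21, 1.67-fold, with a gap of 0.32) and floxed minus Hoxa9-Meis1 0.13 (SE 0.21). Ly6d varied little in Hoxa9-Meis1 leukemias (SD 0.07) and more in deleted (0.35) and floxed leukemias (0.33).

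**Figure D2:**
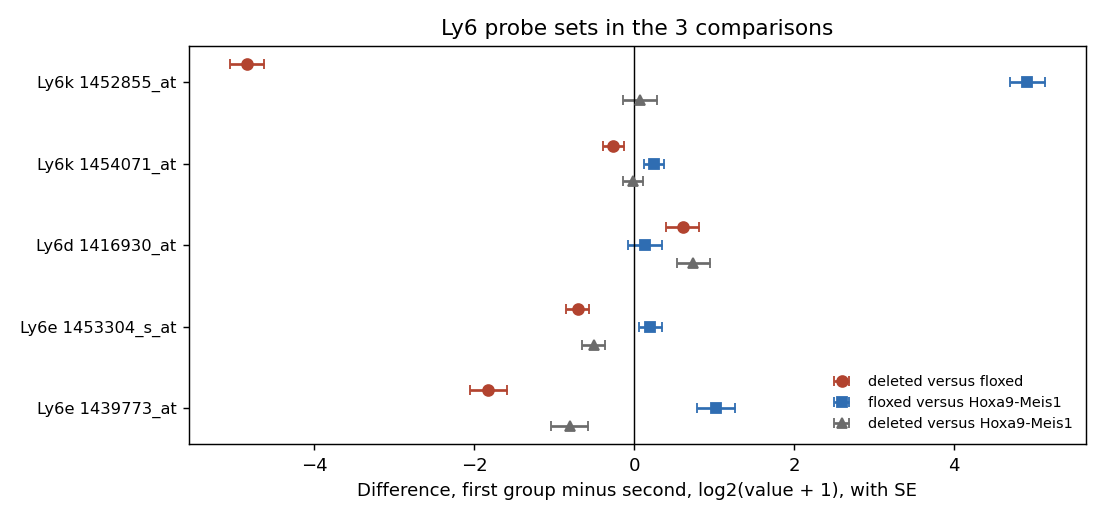
Points are fitted differences between group means (first group named minus the second) for each probe set, on the log2(value + 1) scale, and bars are SE. Ly6k 1452855_at lies at -4.84 and 4.92 in the comparisons with floxed leukemias and at 0.07 between the other groups, and Ly6d is the only probe set above 0 after deletion.

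Counted together, 3 of the 5 probe sets were past a limma adjusted p of 0.05 in deleted versus floxed leukemias, all lower, against 6.16% of all probe sets. There, 4 of 5 did not overlap between the groups, against 24.8% of all. In floxed versus Hoxa9-Meis1 leukemias 2 of 5 were past the threshold, both higher, against 9.01%, and the same number did not overlap, against 28.1%. In deleted versus Hoxa9-Meis1 leukemias 3 of 5 were past it, 1 higher and 2 lower, against 15%, and 3 did not overlap, against 34.2%. The genes were chosen with these comparisons known, so nothing is read from these counts. Several of these calls were lost when 1 array was left out. In deleted versus floxed leukemias the call of Ly6e 1453304_s_at ended without any 1 of deleted replicates 4, 5 and 6 or floxed replicates 5 and 6, and with the replicate block. In floxed versus Hoxa9-Meis1 leukemias the call of Ly6e 1439773_at ended without floxed replicate 5 or 6 or Hoxa9-Meis1 replicate 1 or 2. In deleted versus Hoxa9-Meis1 leukemias leaving out any 1 of the 6 arrays left 0 or 1 of the 3 calls. The comparisons share arrays, so their values are not separate observations.

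The rest of the family was next examined, from a list of 17 further Ly6 and uPAR family genes of chromosome 15. Of these, 10 had a probe set with a single symbol, and each gene was represented by its brightest one. In limma, 0 of 10 passed in each of the 3 comparisons. Of all genes, 2.92% were called higher and 3.46% lower in deleted versus floxed leukemias. These shares were 5.42% and 3.24% in floxed versus Hoxa9-Meis1, and 8.90% and 6.03% in deleted versus Hoxa9-Meis1 leukemias. So few genes would pass at these shares that 0 of 10 does not show an unchanged family. The 10 had 1, 2 and 1 at an unadjusted p under 0.05, a count not made over all genes. Their medians were 0.07, -0.02 and 0.06, against 0.06, -0.01 and 0.05 over all genes. Lynx1, whose product modulates nicotinic acetylcholine receptors, was the nearest to the threshold. It was at 6.71, 7.18 and 7.21 on floxed arrays, between 6.45 and 6.55 on deleted arrays and between 6.46 and 6.58 in Hoxa9-Meis1 leukemias, so the floxed arrays were the highest. Deleted minus floxed was -0.53 (limma adjusted p = 0.0694) and floxed minus Hoxa9-Meis1 0.53 (limma adjusted p = 0.0562). Without floxed replicate 4 these were -0.69 and 0.69 (limma adjusted p = 0.0155 and 0.0137). In the fit of all 9 arrays the other Lynx1 probe set differed by -0.07 and 0.01.

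The remaining 9 are given by their ranges over the arrays. Ly6m lay within the background gauge on all arrays (4.37 to 4.65). Ly6f (4.41 to 5.06), Ly6h (5.37 to 5.80), Ly6i (4.99 to 6.08) and Gpihbp1 (5.30 to 6.05), whose product carries lipoprotein lipase to the capillary wall, were dim. Ly6g2 (6.79 to 7.13), Slurp1 (7.10 to 7.61), Psca (5.97 to 6.89) and Lypd2 (6.77 to 7.49) spanned less than 1 log2 unit over the 9 arrays. Ly6g6g, the measured gene next to Ly6k on the Ly6d side, was not on the list and is named after its values were seen. It was at 6.53, 6.09 and 6.14 on floxed arrays, at 5.57, 6.19 and 5.80 on deleted arrays and at 5.84, 5.88 and 5.53 in Hoxa9-Meis1 leukemias. The floxed arrays overlapped the deleted arrays and lay above the Hoxa9-Meis1 arrays, with differences of -0.40 (SE 0.19, limma adjusted p = 0.272) for deleted minus floxed and 0.50 (SE 0.19, limma adjusted p = 0.147) for floxed minus Hoxa9-Meis1. Of 24 family genes on other chromosomes, 16 were measured and 0 passed in limma in each comparison, against the shares of all genes given above. At an unadjusted p under 0.05 were 2, 1 and 0 of the 16, again with no share of all genes to set beside them.

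Along the chromosome, the cluster from Ly6d to Ly6h held 12 genes with a named probe set, and the 5 nearest such genes on each side were added. Outside the members, 0 of 19 neighbours passed in deleted versus floxed leukemias, against 2.92% of all genes higher and 3.46% lower. In floxed versus Hoxa9-Meis1 leukemias 2 were higher and 0 lower, against 5.42% and 3.24%. In deleted versus Hoxa9-Meis1 leukemias 1 was higher and 0 lower, against 8.90% and 6.03%. The pseudogene transcript 9030619P08Rik, which lies between Ly6f and Ly6h, was at 8.19, 8.08 and 8.0 on floxed arrays. It was at 7.19, 7.42 and 6.70 on deleted arrays and at 5.77, 5.80 and 6.75 in Hoxa9-Meis1 leukemias. The floxed arrays were the highest, and the deleted and Hoxa9-Meis1 arrays overlapped. Floxed minus Hoxa9-Meis1 was 1.98 (SE 0.27, limma adjusted p = 0.00347), a call that held in all 15 alternatives. Deleted minus Hoxa9-Meis1 was 1.0 (limma adjusted p = 0.0401), a call that 7 of 15 alternatives ended, 4 of them leaving out deleted replicate 4 or 5 or Hoxa9-Meis1 replicate 1 or 2, with adjusted p up to 0.14. Deleted minus floxed was -0.98 (limma adjusted p = 0.073). The other gene that passed, 2810039B14Rik beyond the cluster, was 0.56 higher in floxed than in Hoxa9-Meis1 leukemias (limma adjusted p = 0.0273), and 8 of 15 alternatives ended that call, among them leaving out floxed replicate 5 or 6 or Hoxa9-Meis1 replicate 1 or 3, with adjusted p up to 0.347.

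**Figure D3:**
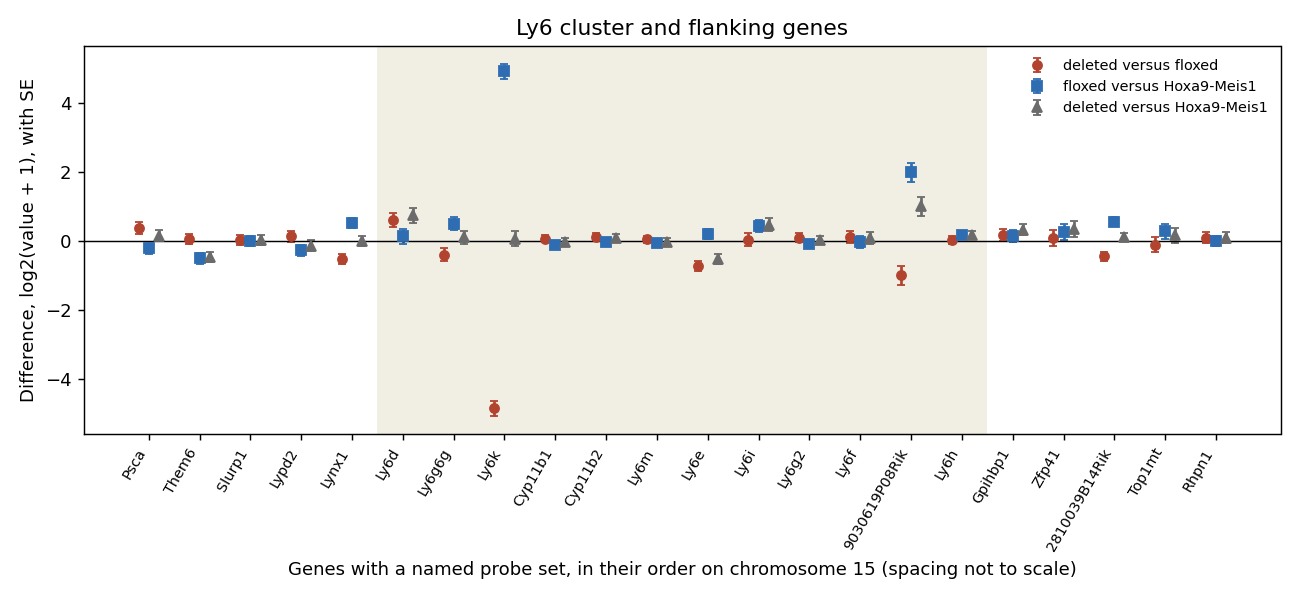
Genes are in their order on chromosome 15, evenly spaced, each by its brightest probe set, with the cluster from Ly6d to Ly6h shaded; points are differences on the log2(value + 1) scale and bars SE. Ly6k stands at -4.84 and 4.92, Ly6g6g beside it at -0.40 and 0.50, and 9030619P08Rik is 1.98 higher in floxed than in Hoxa9-Meis1 leukemias.

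Which other genes followed the same pattern over the 9 arrays was described by Pearson's r of log2 values among 5262 genes that reached a group mean of 7 and a range of 1. These arrays fall into their 3 groups, so r mostly follows the group means and carries no p. Most like Ly6k were Hoxa5 (r = 0.993), a HoxA transcription factor gene, Psma8 (0.979), a proteasome subunit gene of the testis, and Dmrta2 (0.978), a developmental transcription factor gene. Hoxa5 was at 6.74, 9.79 and 6.48 in deleted, floxed and Hoxa9-Meis1 leukemias, Psma8 at 6.48, 9.26 and 6.12, and Dmrta2 at 5.08, 7.59 and 5.03. All of them were high on the floxed arrays alone. Most like Ly6d were Vasp (0.970), an actin regulator, the adaptor gene Sh3bp2 (0.965) and Pcolce (0.965), a procollagen processing enhancer. Most like Ly6e by its brightest probe set were Gltp (0.942), for a glycolipid transfer protein, Kctd14 (0.942) and Ppfia4 (0.940).

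**Figure D4:**
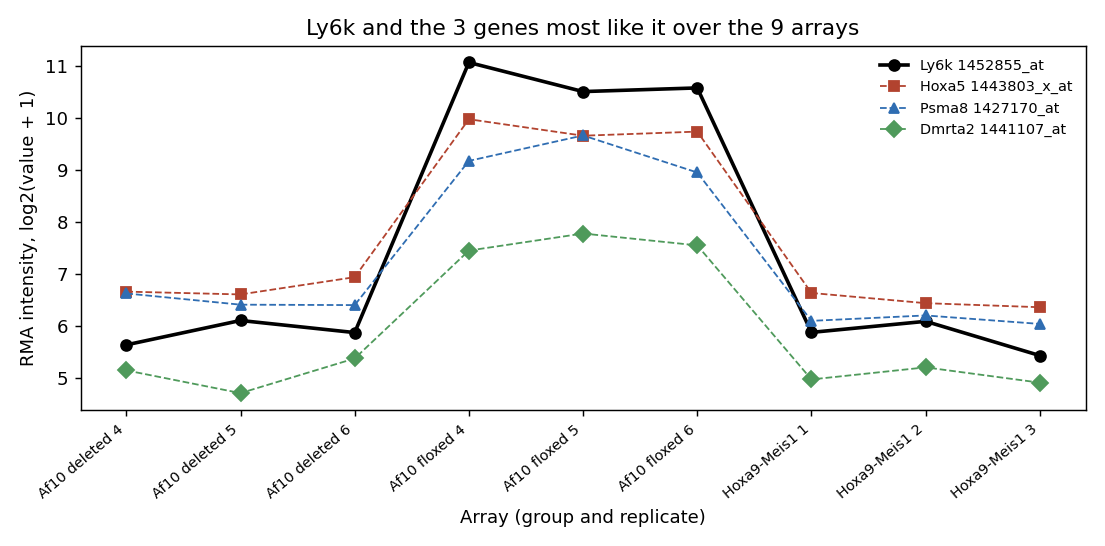
Lines join the log2(value + 1) intensities of Ly6k 1452855_at and of Hoxa5, Psma8 and Dmrta2 on the 9 arrays, named by group and replicate; levels of different genes are not comparable on this axis. All 4 genes are high on the 3 floxed arrays and low on the other 6.

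Of 28 listed genes that make and attach the GPI anchor, by which Ly6 proteins are held at the surface, 26 were measured. Their median difference was 0.07 in deleted versus floxed, 0.22 in floxed versus Hoxa9-Meis1 and 0.35 in deleted versus Hoxa9-Meis1 leukemias, against 0.06, -0.01 and 0.05 over all genes. At an unadjusted p under 0.05 there were 2, 7 and 11 of these genes. The share of all genes at that p was not computed, so nothing is read from these numbers. Pigu, a subunit of the transamidase that attaches the anchor, was 0.62 higher in deleted than in floxed leukemias (limma adjusted p = 0.0424), the 1 gene called there, and 8 of 16 alternatives ended that call, among them leaving out replicate 4 or 5 of either group, with adjusted p up to 0.187. Pigu was the only call of 26 genes there, against 2.92% of all genes higher and 3.46% lower. In floxed versus Hoxa9-Meis1 leukemias 3 were higher and 0 lower, against 5.42% and 3.24% of all genes. In deleted versus Hoxa9-Meis1 leukemias 2 were higher and 0 lower, against 8.90% and 6.03%. Pigx, of an early mannosyltransferase step, was higher by 0.66 (limma adjusted p = 0.019) and 0.82 (limma adjusted p = 0.00453). The first of these calls was ended by 5 of 15 alternatives, among them the fits without floxed replicate 6 or without Hoxa9-Meis1 replicate 1 or 2 (adjusted p up to 0.0705), and the second held in all 15. The other genes called higher in floxed than in Hoxa9-Meis1 leukemias were Pigg and Pigv, and 9 and 12 of 15 alternatives ended these calls. Pgap2, the other gene called higher in deleted than in Hoxa9-Meis1 leukemias, lost its call in 2 of 15.

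Because Ly6e is induced by interferon, a list of 33 interferon response genes, 30 of them measured, was set beside it. In deleted versus floxed leukemias 4 fell and 1 rose, against 3.46% of all genes lower and 2.92% higher. The median was -0.17, against 0.06 over all genes. The summed intensity of the list was 14640 to 18512 on deleted arrays against 22381 to 26681 on floxed and 24193 to 25565 on Hoxa9-Meis1 arrays. Psmb8, an immunoproteasome subunit gene, fell from 12.88 ± 0.19 to 11.23 ± 0.07 (3.14-fold, limma adjusted p = 0.000236), in all 16 alternatives. The sum is weighted toward bright genes such as Psmb8, so it does not stand for the list as a whole. The antigen peptide transporter gene Tap1 fell by 1.02 on the log2 scale (limma adjusted p = 0.00714). The mean of its probe sets differed by -0.23 (limma adjusted p = 0.218), and the replicate block also ended its call. Mx1, an antiviral GTPase gene, fell by 1.14 (limma adjusted p = 0.0387), a call that 9 of 16 alternatives ended, among them the fits without 1 of deleted replicates 4 and 5 or of floxed replicates 5 and 6 (adjusted p up to 0.136). The chemokine gene Cxcl10 rose from 5.82 ± 0.31 to 8.20 ± 1.12 (limma adjusted p = 0.0227), and 3 of 16 alternatives ended that call: a fit of these 2 groups alone and leaving out deleted replicate 4 or floxed replicate 5 (adjusted p up to 0.0939). In deleted versus Hoxa9-Meis1 leukemias 6 of the 30 were lower and 2 higher, against 6.03% and 8.90% of all genes, with a median of -0.30. Of the lower genes, Gbp3 lost its call in 8, Xaf1 in 5, Tap1 in 1 and Psmb8 in 0 of 15 alternatives. The higher genes were Cxcl10, by 2.26 (limma adjusted p = 0.0148), and Ifit2, by 1.26 (limma adjusted p = 0.00507). These lost their calls in 1 and 0 of 15 alternatives. In floxed versus Hoxa9-Meis1 leukemias 1 was higher and 0 lower, against 5.42% and 3.24% of all genes, with a median of -0.14. That gene, Ifit2, lost its call in 6 of 15 alternatives. The part of interferon signalling in the level of Ly6e was not tested.

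Markers of cells that carry Ly6 proteins were set beside the members, and only some genes of each list were called. Over all genes, 2.92% were called higher and 3.46% lower in deleted versus floxed leukemias, with a median of 0.06. Summed intensities are weighted toward the bright genes of a list. Plasmacytoid dendritic cell markers had a summed intensity of 3298 to 5148 on deleted, 12719 to 14007 on floxed and 7130 to 8653 on Hoxa9-Meis1 arrays, and 3 of 8 measured fell after deletion. Cox6a2 fell by 2.13 (limma adjusted p = 0.00125), Irf8 fell by 1.88 (limma adjusted p = 0.0174) and Tcf4 fell by 1.83 on the log2 scale (limma adjusted p = 0.00841). The median of the 8 was -0.29. The replicate block ended the calls of Irf8 (adjusted p = 0.0521) and Tcf4 (adjusted p = 0.0574), and that of Irf8 also ended without deleted replicate 4 or 6 (adjusted p up to 0.0596). None of the 8 was in the background range on all arrays. B cell markers summed to 2302 to 2417, 3706 to 4645 and 1874 to 3234, and 2 of 15 fell after deletion. Il7r fell by 2.48 (limma adjusted p = 0.0448, a call ended by 10 of 16 alternatives, among them leaving out any 1 of the deleted arrays or floxed replicate 6) and Cd79b fell by 0.75 (limma adjusted p = 0.00613, and 0.0589 with the replicate block). The median of the 15 was 0.04, with 9 at an unadjusted p under 0.05. The share of all genes at that p was not computed, so nothing is read from such counts here or below. Without floxed replicate 6 the B cell marker Igll1 was 0.82 higher in deleted leukemias (limma adjusted p = 0.0168). Against Hoxa9-Meis1 leukemias, 2 of the 15 were higher and 0 lower in floxed leukemias, and 2 higher and 0 lower in deleted leukemias. The latter were Cd79a, by 1.30 (limma adjusted p = 0.0187), and Igll1, by 0.83 (limma adjusted p = 0.0391), calls that 4 and 8 of 15 alternatives ended. All genes gave 5.42% higher and 3.24% lower for floxed, and 8.90% and 6.03% for deleted leukemias.

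Of 15 T and NK cell markers 4 rose and 1 fell after deletion, at overlapping sums of 2213 to 4322 on deleted and 2764 to 5478 on floxed arrays. The median of the 15 was 0.46, with 11 at an unadjusted p under 0.05. Gzma rose by 1.56 (limma adjusted p = 0.00173) and Il2rb by 1.56 (limma adjusted p = 0.00581), and Cd5 fell by 1.20 on the log2 scale (limma adjusted p = 0.00399). The Gzma call held in all 15 alternatives, at differences down to 0.86 and limma adjusted p up to 0.048. Of 14 stem and progenitor markers 4 fell and 0 rose, with a median of 0.06. Among them Flt3 fell by 4.56 (limma adjusted p = 4.7e-05) and Cd34 fell by 3.57 on the log2 scale (limma adjusted p = 0.00378), and the sum of the list was 3464 to 4002 on deleted, 8446 to 10365 on floxed and 4785 to 7921 on Hoxa9-Meis1 arrays. The other calls were weaker. That of Kit (limma adjusted p = 0.0464) was ended by 11 of 16 alternatives, among them leaving out any 1 array of these groups. That of Meis1 (limma adjusted p = 0.0383) was ended by 9 of 16. Of 13 endothelial markers 1 fell after deletion, at sums of 1342 to 1873 and 2287 to 2971, of 9 neutrophil markers 1 rose, at 88945 to 115838 and 61793 to 104366, and of 7 monocyte markers 1 rose and 1 fell, at 11745 to 14638 and 11787 to 18935. Median differences were 0.01 for the endothelial, 0.17 for the neutrophil and -0.85 for the monocyte markers. The replicate block ended the calls of the neutrophil marker Cxcr2 and the monocyte marker F13a1, which rose. The calls of the endothelial marker Pecam1 and the monocyte marker Ccr2, which fell, were ended by 5 and 8 of 16 alternatives. The part of any of these cell types in the Ly6 values was not tested.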

How the data were processed

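For each of 9 one-colour Affymetrix arrays the authors deposited an intensity per probe set made with RMA, per the submitters' processing notes; per the labels, labelling started from 100 ng of total RNA. The sources used here do not give its version, chip definition or genome build, so no coordinates are printed. Intensities ran from 4.60 to 32082, a linear scale, so log2(value + 1) was taken. RMA usually includes quantile normalization, which removes shifts shared by most genes. Array number, not depth, limits precision.

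The annotation gave 34958 probe sets 1 symbol and 932 several, and 9211 were unlisted. Chromosome and gene order came from RefSeq (GRCm38.p6). All 45101 probe sets were fitted in a group-means model of all 9 arrays with limma 3.58.1 in R 4.3.3 (two-sided, Benjamini-Hochberg over all probe sets, called at adjusted p under 0.05) with no filter, tested first on simulated data. A gene in a list stood by its brightest probe set on average (18194 genes). Members and lists were chosen with earlier results of these data known. Genes named from a list are at most the 4 largest calls per comparison, all measured genes of the chromosome 15 family list, called neighbours, and the 3 genes most like each member.

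Deleted and floxed arrays share replicate numbers 4, 5 and 6, but deviations of same-numbered arrays from their group means correlated at only 0.01 to 0.05, so no block was used. No pair of arrays was a duplicate. Alternatives were pseudocount 32, a filter at a mean of 6, fits of 2 groups, quantile normalization, array weights, an intensity trend, chromosome 15 centring, the replicate block, gene means and leaving out each array.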

Additional observations from a re-analysis of the deposited data

How the results depend on the processing

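Across the alternatives no difference of a member that was past the threshold changed sign. Pseudocount 32 reduced the deleted minus floxed difference of Ly6k from -4.84 to -4.26 by 1452855_at and from -0.26 to -0.12 by 1454071_at, and floxed minus Hoxa9-Meis1 from 4.92 to 4.30 by 1452855_at, since a larger pseudocount compresses dim values. Centring over chromosome 15 genes with a mean of at least 7, an alternative chosen after seeing the data, took floxed minus Hoxa9-Meis1 to 0.071 for Ly6k 1454071_at and to 0.024 for Ly6e 1453304_s_at. Under both forms of chromosome 15 centring 1 member probe set in place of 2 was called in floxed versus Hoxa9-Meis1 leukemias. In deleted versus Hoxa9-Meis1 leukemias 1 in place of 3 was called with pseudocount 32 and with an intensity trend. Leaving out 1 array at a time, 2 to 3 member probe sets were called in deleted versus floxed, 1 to 2 in floxed versus Hoxa9-Meis1 and 0 to 1 in deleted versus Hoxa9-Meis1 leukemias.

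Over all probe sets, 2779 were called in deleted versus floxed leukemias, 1735 with only these 2 groups in the fit, 1180 with a replicate block (same-numbered arrays paired; of the deleted arrays none correlated best with its own number), and 1344 to 2718 without 1 array. In floxed versus Hoxa9-Meis1 leukemias 4064 were called, and 1725 to 4106 without 1 array. In deleted versus Hoxa9-Meis1 leukemias 6770 were called, and 3864 to 6265 without 1 array. Of the calls, 38.9%, 54.9% and 47.9% were higher in the group named first. Chromosome 15 centring made the floxed versus Hoxa9-Meis1 share 42.8%. Centring over the brighter chromosome 15 genes moved the median of all genes from 0.06 to 0.17 in deleted versus floxed and from -0.01 to -0.19 in floxed versus Hoxa9-Meis1 leukemias, and these shares to 61.2% and 24.7%. Of the other chromosome 15 family genes, 1 in place of 0 was called in floxed versus Hoxa9-Meis1 leukemias with array weights, and 0 to 1 in that and the deleted versus floxed comparison without 1 array. The cause of these changes was not tested. Dim probe sets, such as Ly6k 1454071_at, lie near background, which limits what they can show.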
